A study of Mus musculus with 16 samples.

Results

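The arrestins described here are 4 genes, the rod arrestin Sag, the cone arrestin Arr3 and the beta-arrestins Arrb1 and Arrb2, taken by gene symbol from a deposited table of 25905 genes measured in the mouse retina. RNA was sequenced from right-eye retinas of male wild type C57BL/6 mice labelled as 10 weeks old, which was their age at launch; the retinas were taken after the flown mice had returned to Earth. The spaceflight group held 8 mice that had lived on the International Space Station, and the ground control group held 8 mice kept on Earth in the same type of housing. Each level below is the authors' mean of normalized counts over all 16 libraries of both groups, which carries no SD and no n and in which any difference between the groups is averaged. The columns of single libraries could not be matched to mice by their names, so neither the depth of each library nor any difference between spaceflight and ground control is analysed here.

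Arrestins bind G protein-coupled receptors that have been activated and then phosphorylated by a receptor kinase, and they stop the receptor from turning over further G protein. In photoreceptors this ends the response to light: Sag does so in rods, Arr3 caps cone opsins, and mouse cones make Sag as well. The beta-arrestins serve receptors throughout the body and also hand them to clathrin-coated pits for uptake.

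Levels are given as mean normalized counts per kilobase of the coding sequence of each gene, written below as per coding kilobase. This sets genes of different coding length beside each other, but leaves out untranslated parts, where reads can also be counted. Their extent differs: Sag has 1212 coding bases in a longest transcript of 1719, and the photoreceptor kinase gene Grk1 has 1695 in 7425. Some comparisons are therefore also given per kilobase of the longest transcript, and which length is better was not tested. The tissue label was first checked against marker genes, which bear on where the arrestin messages come from. All 9 rod markers used were in the table, with a median level of 9034 per coding kilobase against 19.3 over the 19855 genes with a coding length. The rod list includes the photoreceptor genes Prph2 and Rcvrn, so it may not reflect rods alone. Of the level summed over the 19855 genes, the 9 rod markers held 4.39%, and Gnat1 alone held 2.83%. Of that sum, the 6 markers of Muller glia held 0.481%, the 9 of cones 0.170%, the 7 of bipolar cells 0.132%, the 7 of ganglion cells 0.106% and the 7 of amacrine and horizontal cells 0.0670%. From outside the neural retina, the 6 lens markers held 0.0459% with Cryaa the highest at 1519 per coding kilobase, the 7 pigment epithelium markers 0.0378% with Ttr the highest at 1216, and the 7 microglia and blood markers 0.00392%. No marker was listed at 0, but 2 cone markers and 2 of microglia and blood had a mean below 10 normalized counts. So did 1 marker each of bipolar cells, ganglion cells, Muller glia, pigment epithelium and lens. Among these were the cone gene Pde6c at 0.0270 and the Muller glia gene Rlbp1 at 1.46 per coding kilobase. Both were counted under several transcript models, which are described below. In whole retina, fewer cells of a type and less RNA per cell cannot be told apart.

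Sag was by far the highest of the 4 arrestins. Its authors' mean was 29757 normalized counts over a coding sequence of 1212 bases, a level of 24552 per coding kilobase. This level took place 12 among the 11175 genes that had a mean of at least 10 normalized counts and a coding length, above 99.9% of them and 172 times their median of 142 per coding kilobase. Sag alone held 0.473% of the level summed over the 19855 genes with a coding length, more than the 9 cone markers together. Of those cone markers, 2 had a mean below 10 normalized counts. The genes next above it in level per coding kilobase were Vamp2 at 26383, Atp1b2 at 26795 and the photoreceptor disc protein gene Prph2 at 28536. Below it lay Ccdc72 at 22408 and Rcvrn, a photoreceptor calcium sensor that restrains the kinase Grk1, at 16338. These are neighbours in level only.

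Within the photoresponse, Sag ranked above every listed gene of shutoff and recovery, with levels taken as listed. Pdc of that list, at 0.306 per coding kilobase, and Gnb1 of the rod list, at 0.261, were counted under several transcript models. Such low values are taken up below, and whether Sag exceeds these 2 messages in the retina was not tested. Among 34 genes, made up of 30 genes of the rod, cone and shutoff lists and the 4 arrestins, Sag took place 4 in level per coding kilobase, behind Gnat1, Pde6g and Gngt1. The order of Sag against Pde6g and Gngt1, which have short coding sequences, depends on the length used: Sag took place 2, ahead of both, with no correction for length, and place 3, ahead of Gngt1, per kilobase of the longest transcript. Gnat1, Pde6g and Gngt1 encode the alpha subunit of rod transducin, the inhibitory subunit of the rod phosphodiesterase and the gamma subunit of rod transducin. Per coding kilobase, the level of Sag was 16.7% of that of Gnat1. Against Grk1, the photoreceptor kinase that prepares the receptor for tight arrestin binding, the level of Sag was 270.2% per coding kilobase. The order Gnat1, Sag, Grk1 was the same per kilobase of the longest transcript, but there Sag stood at 26.1% of Gnat1 and 834.6% of Grk1.

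**Figure D1:**
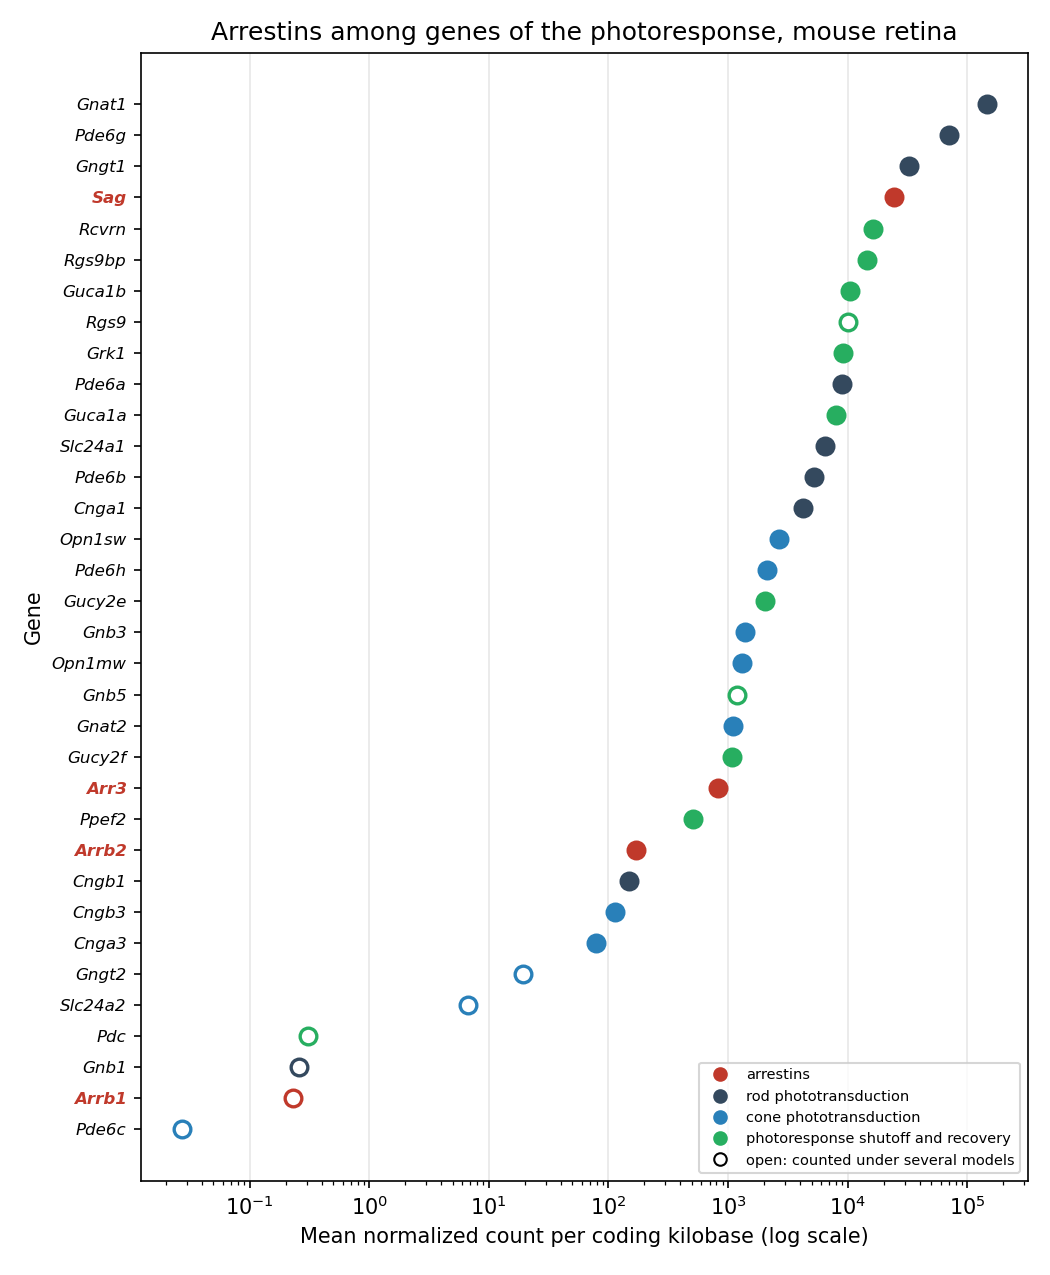
Level of the 4 arrestins (red) and of 30 genes of rod phototransduction, cone phototransduction and photoresponse shutoff, in mean normalized counts per coding kilobase on a log axis; each point is the authors' mean over 16 libraries, without an error, and open points are genes counted under several transcript models. Sag lies at 24552, Arr3 at 821, Arrb2 at 172 and Arrb1 at 0.229.

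Arr3, the cone arrestin, was well above the typical gene but far below Sag. Its mean was 941 normalized counts over 1146 coding bases, a level of 821 per coding kilobase. That was place 1186 among the same 11175 genes, above 89.4% of them and 5.77 times their median. The level of Sag was 29.9 times that of Arr3 per coding kilobase. The neighbours of Arr3 in level per coding kilobase, lying between 817 and 823, were Srgap3, Eif3g and Hist2h4 above it and Ptn, Sys1 and Atxn1 below it. None of these 6 genes is in a photoreceptor list used here.

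Among cone genes, Arr3 lay below the opsins that it binds. Its level per coding kilobase was 30.5% of that of Opn1sw, the short-wavelength cone opsin, and 59.6% of it per kilobase of the longest transcript. Against Opn1mw, the middle-wavelength opsin, the level of Arr3 was 62.6% per coding kilobase. Against Gnat2, the alpha subunit of cone transducin, Arr3 stood at 74.4% per coding kilobase and at 121% per kilobase of the longest transcript, so that the order of this pair depends on the length used. In the set of 34 photoresponse genes Arr3 took place 23 per coding kilobase and place 19 per kilobase of the longest transcript. Per coding kilobase it lay between Gucy2f, a photoreceptor guanylate cyclase, and Ppef2, a photoreceptor phosphatase.

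The ratio of Arr3 to Sag can be set beside other proteins that exist in a cone and a rod form. Of 9 such pairs, 5 have all their genes counted under a single transcript model. Arr3 was at 3.34% of Sag per coding kilobase. Gnat2 was at 0.752% of Gnat1 and the inhibitory phosphodiesterase subunit Pde6h was at 3.05% of Pde6g, both per coding kilobase. Of the channel subunits, Cnga3 was at 1.86% of Cnga1 and Cngb3 at 77.2% of Cngb1 per coding kilobase. The counted Cngb1 model holds 981 coding bases, against 2085 for Cngb3. Whether it covers the whole rod channel subunit was not tested, so the Cngb1 level may not be that of the subunit. The arrestin ratio thus lay above the transducin, phosphodiesterase and alpha channel ratios and below the beta channel ratio per coding kilobase. This order of the arrestin ratio was the same per kilobase of the longest transcript, where Arr3 was at 3.998% of Sag, Cnga3 at 1.33% of Cnga1, Gnat2 at 0.862% of Gnat1, Pde6h at 0.441% of Pde6g and Cngb3 at 52.7% of Cngb1. With no correction for length Cngb3 was at 164% of Cngb1, so that the order of these channel genes depends on the length used.

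**Figure D2:**
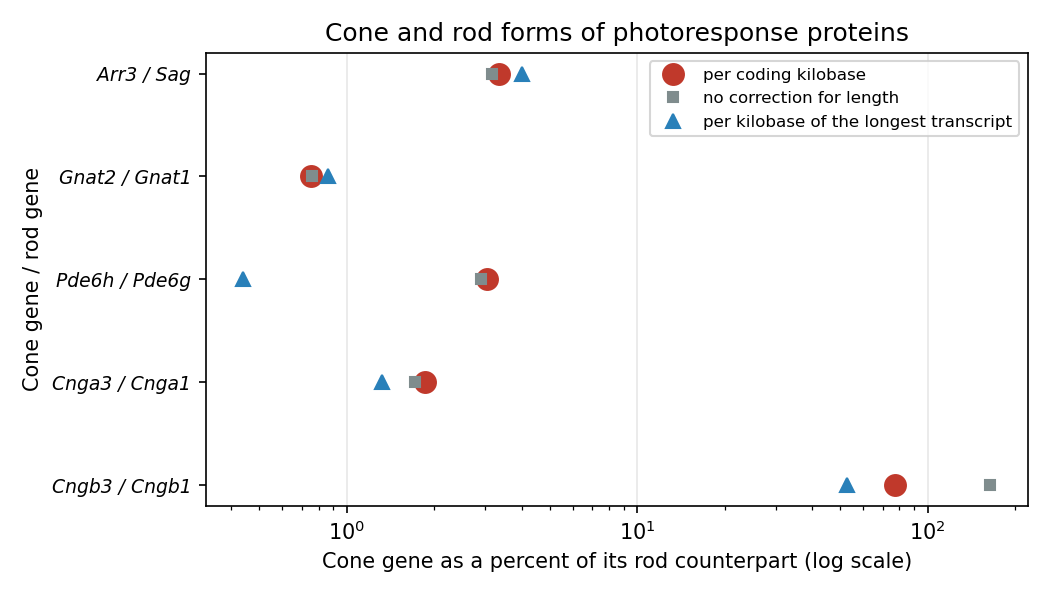
Level of the cone gene as a percent of its rod counterpart for the 5 pairs counted under single transcript models, on a log axis, per coding kilobase (circles), with no correction for length (squares) and per kilobase of the longest transcript (triangles). Arr3 against Sag stays between 3.16% and 3.998%, while Pde6h against Pde6g moves between 0.441% and 3.05%. The counted Cngb1 model holds 981 coding bases, and whether it covers the whole rod subunit was not tested.

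Arrb2 was close to the typical expressed gene of the retina. Its mean was 211 normalized counts over 1233 coding bases, a level of 172 per coding kilobase and 1.20 times the median of the 11175 genes. It lay above 55.3% of those genes, and above 35.2% when only genes with a mean of at least 100 normalized counts were ranked. Per coding kilobase, the level of Sag was 143 times and that of Arr3 4.79 times the level of Arrb2. Its neighbours, all between 171 and 172 per coding kilobase, were Gabpb1, Dzip1 and Cobra1 above it and Sema3e, Zfp521 and Rfx1 below it.

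The receptor kinases and trafficking proteins that work with beta-arrestins were listed both above and below Arrb2. Of the 6 receptor kinases, the photoreceptor kinase Grk1 was at 9086 per coding kilobase, and the other 5 ran from 4.44 for Grk6 to 254 for Adrbk1. The median over all 6 was 95.8 per coding kilobase, below Arrb2. Apart from Grk1, only Adrbk1 was above Arrb2 per coding kilobase. Grk5, like both of these counted under 1 transcript model, was below it at 64.2 per coding kilobase. So were the 3 kinases counted under several models, Adrbk2 at 127, Grk4 at 29.2 and Grk6 at 4.44. With no correction for length Adrbk2 was above Arrb2, at means of 263 and 211 normalized counts, so that the order of this pair depends on the length used. Against Adrbk1, which encodes the widely expressed receptor kinase GRK2, the level of Arrb2 was 67.6% per coding kilobase and 42.8% with no correction for length. Arrb2 was at 267% of Grk5, another widely expressed receptor kinase, per coding kilobase, and at 661% of it per kilobase of the longest transcript. The 12 trafficking partners, which are clathrin and its AP2 adaptor, the vesicle fusion ATPase Nsf and the ubiquitin enzymes Mdm2, Usp20 and Usp33, had a median of 626 per coding kilobase, higher than Arrb2. In that list Nsf was the highest at 2465 per coding kilobase, and Usp20, which removes ubiquitin, was at 115, below Arrb2. With no correction for length Usp20 was above Arrb2, at means of 316 and 211 normalized counts. Mdm2, which attaches ubiquitin to beta-arrestins, was at 485 per coding kilobase, also above Arrb2.

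Arrb1 was listed near 0. Its mean was 0.288 normalized counts, a level of 0.229 per coding kilobase over 1257 coding bases, and it was the only arrestin of the 4 below a mean of 10 normalized counts. Among the 15907 genes with a mean above 0 and a coding length it took place 14798. Its neighbours in level per coding kilobase were Fgf6, Casp14 and Ikzf3 above it and Cbs, Fam151a and Spink7 below it, all between 0.228 and 0.230. Arrb1 also differed from the other 3 arrestins in how it was counted. The authors counted reads per RefSeq transcript model, and Arrb1 was entered as 2 models, whereas Sag, Arr3 and Arrb2 were entered as 1 model each.

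The 2 counted models of Arrb1 have nearly the same coding sequence. The longer holds 1257 coding bases and the shorter 1233, and all 1233 are shared. The difference is a single coding exon of 24 bases, at positions 999 to 1022 of the longer coding sequence, counted from the first base of the start codon. In the GENCODE M21 annotation of GRCm38 this exon lies at chr7:99597036-99597059 on the plus strand. It is shown, with 30 coding bases on each side in lower case, because it is the coding stretch by which a read could be told to come from the longer model, and the exon is in capitals.
Arrb1 longer model: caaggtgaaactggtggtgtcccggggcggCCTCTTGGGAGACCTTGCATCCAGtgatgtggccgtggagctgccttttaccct
The stretch that belongs to 1 model alone is therefore 1.91% of the coding bases of Arrb1. The untranslated parts of the counted models were not compared here.

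Low values were common for genes entered under several models. Among genes with a coding length, the 16702 counted under 1 model had a median level of 40.4 per coding kilobase, and the 3153 counted under 2 or more models had a median of 1.04. A mean below 10 normalized counts was found for 38.5% of the former and 71.5% of the latter, the group that holds Arrb1. Sag, Arr3 and Arrb2 belong to the former. For 2811 of the 3794 genes with several models, every model could be matched to a coding sequence, and the share of coding bases held by 1 model alone could be computed. The 607 genes with a share above 0 and up to 5%, as for Arrb1, had a median level of 0.212 per coding kilobase, close to the 0.229 of Arrb1. The 547 genes with a share above 20% had a median of 14.0 per coding kilobase. How reads that match several models were assigned is not given in the sources used here, and its part in the low level of Arrb1 was not tested.

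**Figure D3:**
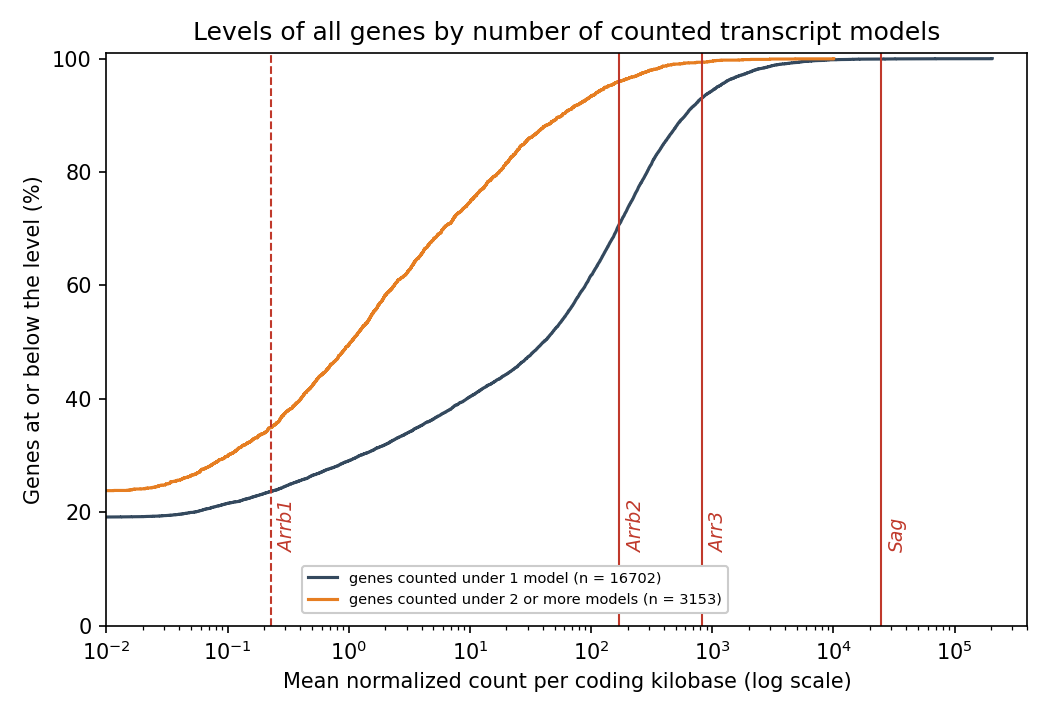
Cumulative share of genes at or below each level, in mean normalized counts per coding kilobase on a log axis, for 16702 genes counted under 1 transcript model and 3153 counted under 2 or more, with genes listed at 0 included in the share but off the axis. Vertical lines mark the arrestins (dashed for Arrb1, which was counted under 2 models), and the curve of genes with several models, whose median is 1.04, lies to the left of that of genes with 1 model, whose median is 40.4.

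Among the listed genes around the arrestins, low means were also found mostly under several models, but not for every gene. Of the 30 genes of the rod, cone and shutoff lists, the 23 counted under 1 model all had a mean of at least 10 normalized counts, beside the 38.5% of all such genes below it, with a lowest level of 78.5 per coding kilobase. Of the 7 counted under several models, 4 were below a mean of 10 normalized counts, like Arrb1, beside 71.5% of all such genes. These were Gnb1, the beta subunit of rod transducin, at 0.261 per coding kilobase, Pdc, the transducin-binding protein phosducin, at 0.306, Pde6c, the catalytic subunit of the cone phosphodiesterase, at 0.0270, and Gngt2, the gamma subunit of cone transducin, at 19.1. The other 3 were Rgs9, which speeds transducin shutoff, at 10068 per coding kilobase, its partner Gnb5 at 1191, and the exchanger gene Slc24a2 at 6.65. Among the trafficking partners, the 4 genes with several models, Ap2a1, Ap2b1, Clta and Usp33, had a median level of 0.460 per coding kilobase, and the 8 with 1 model had a median of 1018. The medians of the other 2 lists lay in the same order. They were 254 per coding kilobase for the 3 receptor kinases with 1 model and 29.2 for the 3 with several. For the alpha-arrestins they were 68.0 for the 3 with 1 model and 0 for the 3 with several. Single genes of both lists did not follow this order. Of the 3 kinases with several models only Grk6 had a mean below 10 normalized counts, and Adrbk2 lay above Grk5, which has 1 model, per coding kilobase. The alpha-arrestin gene Arrdc5, with 1 model, was listed at 0, while Arrdc4, with 2, was at 25.7 per coding kilobase.

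Arrb1 could be placed among 24 listed genes for which the share of coding bases held by 1 model alone was known. Of the 13 with a share of up to 5%, which include Arrb1 at 1.91%, 12 had a mean below 10 normalized counts, beside 85.4% of all genes with such a share. The exception was Nrl, the rod transcription factor, with no such base and a level of 125 per coding kilobase. Of the 11 with a larger share, 9 had a mean of at least 10 normalized counts, beside 44.7% of all genes with a larger share. Among these 9 were Rgs9 with a share of 32.9% and Trpm1, the channel of ON bipolar cells, with 70.4%. The level of Arrb1 is thus given as listed, and whether the Arrb1 message is scarcer than the Arrb2 message in the retina was not tested.

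**Figure D4:**
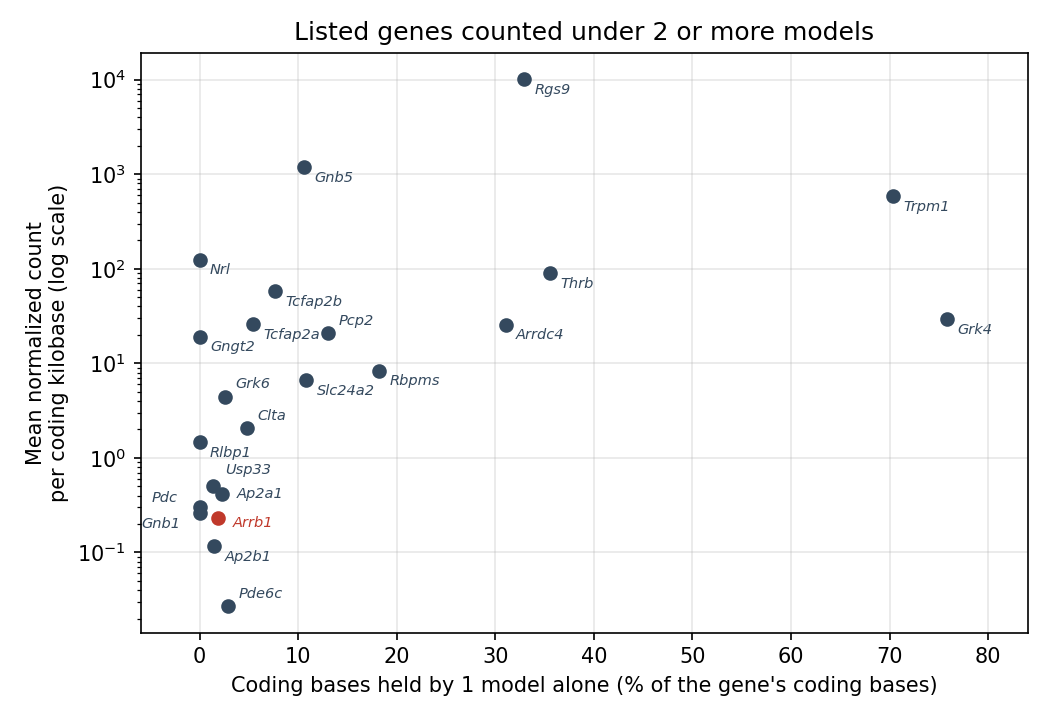
Level in mean normalized counts per coding kilobase (log axis) against the percent of coding bases held by 1 transcript model alone, for the 24 listed genes with several models that could all be matched to a coding sequence, each a point; of these Txnip, listed at 0, is not drawn, and Adrbk2 and Arrdc1 are not among the 24. Arrb1 (red) lies at 1.91% and 0.229, beside Gnb1, Pdc, Ap2a1 and Ap2b1, while Rgs9 lies at 32.9% and 10068.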

How the data were processed

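Per the labels and the study's methods, the authors used Trimmomatic for trimming and TopHat2 for mapping to a mouse build older than GRCm38, took counts per RefSeq model with HTSeq, and normalized and compared them with DESeq2 1.22.2 in R 3.5.1. The signal used here is the authors' deposited mean over all 16 libraries of counts divided by size factors. The same deposited table holds the authors' fold changes, their standard errors, test statistics and p-values, which were not used. In the 2 count tables, 32 columns of per-sample values (16 in each) match no label and were not used, so the planned test between the groups was not run. From the count tables only the model and gene names were read, without 5 entries that name no gene, whose share is not given because it rests on those columns. Coding and transcript lengths are the longest among GENCODE M21 transcripts that carry a counted RefSeq accession; 90.3% of the 12374 genes with a mean of at least 10 had one. For 25 genes the symbol matched no counted model. The listed markers Pmel, Tfap2a and Tfap2b were found under the older symbols Si, Tcfap2a and Tcfap2b. Named genes are the arrestins, members of the lists, and the 3 genes next above and below each arrestin in level per coding kilobase. A few genes that these rules name are not reported here and were left out of the lists. Members and lists were chosen with earlier results of these data known, and the cone and rod pairs, the single genes set against each arrestin and the comparison by number of models after the values were seen. Calculations used Python 3.11.15, pandas 2.3.3 and numpy 2.4.6. The function that finds the inserted stretch was tested on simulated sequences. Those for the share of genes below a level and for coding bases held by 1 model were tested on small cases with known answers. The other calculations were not tested in this way.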

Additional observations from a re-analysis of the deposited data

How the results depend on the processing

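The levels carry no replicate error against which a shift could be judged. With no correction for length, Sag over Arr3, Sag over Arrb2 and Arr3 over Arrb2 were 31.6, 141 and 4.45, and per kilobase of the longest transcript they were 25.01, 151 and 6.05. The percent of genes below Sag, Arr3 and Arrb2 was 99.96, 87.0 and 51.7 with no correction for length, and 99.96, 95.7 and 65.6 per kilobase of the longest transcript. Among genes with a mean of at least 100 normalized counts it was 99.84 for Sag, 84.3 for Arr3 and 35.2 for Arrb2, and among genes with a mean above 0 it was 92.5 for Arr3 and 68.6 for Arrb2. Among genes counted under 1 model, an alternative chosen after seeing the data, it was 88.7 for Arr3 and 52.6 for Arrb2. The cause of these shifts was not tested. The order Sag, Arr3, Arrb2, Arrb1 was the same under each of the 3 treatments of length. Of 12 ratios to other genes or between cone and rod forms, which were chosen after seeing the data, 6 moved by over 1.5 times per kilobase of the longest transcript and 2 with no correction for length. No paired analysis was possible because the columns of single libraries carry no replicate number of the labels. The alternatives planned for the test between the groups (another normalization, another test, no filter, a replicate block, another threshold) were not run for the same reason. GENCODE transcripts can differ from the counted RefSeq models in their untranslated parts, which limits the values per kilobase of the longest transcript. Values per coding kilobase leave untranslated parts out of the length, which limits them in turn.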

Other observations

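The alpha-arrestins, relatives of the arrestins that guide ubiquitin ligases to membrane proteins, were also in the table. Of 6 genes, Arrdc3 was the highest at 486 per coding kilobase, above Arrb2, and Arrdc2 and Arrdc4 were at 68.0 and 25.7 per coding kilobase. The other 3 were listed at 0: Txnip, which restrains glucose uptake, counted under 2 models, Arrdc1, counted under 3, and Arrdc5, counted under 1. Over all genes of the table, 22.6% of those counted under 1 model and 32.7% of those counted under 2 or more were listed at 0.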
